A study of Homo sapiens with 6 samples.

Results

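The leukocyte immunoglobulin-like receptors (LILR) are a family of surface receptors of myeloid and lymphoid cells. The members described are 9 genes taken by name, LILRA1, LILRA2, LILRA5, LILRA6, LILRB1, LILRB2, LILRB3, LILRB4 and LILRB5, out of 57316 gene names in each count table. Of these, 4 are activating receptors and 5 are inhibitory receptors. They were measured in THP-1, a human monocytic leukaemia cell line, by sequencing polyadenylated RNA. All cells in both groups had first received the phorbol ester PMA, which gives THP-1 cells macrophage features, at 100 ng/ml for 48 h. The CXCL10 group then had recombinant human CXCL10, a chemokine that signals through the receptor CXCR3, at 100 ng/ml for 24 h. The control group had a control solution for the same 24 h. Each group had 3 libraries, numbered 1, 3 and 4, and no label says whether they came from separate cultures, so the spread between them may be technical. THP-1 is 1 tumour-derived line, and levels in it are not those of macrophages from blood.

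LILR genes lie side by side in the leukocyte receptor complex. The activating members (LILRA) have short tails and signal through the adaptor FCER1G, whose phosphorylated motif recruits the kinase SYK. The inhibitory members (LILRB) carry tyrosine-based inhibitory motifs in long tails, which recruit the phosphatases PTPN6 and PTPN11. Ligands include HLA class I molecules for LILRB1 and LILRB2, and on monocytes and macrophages the receptors are known for setting the threshold of activation.

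On hg38 the 9 genes lie in 2 stretches of chromosome 19. LILRB3, LILRA6, LILRB5, LILRB2 and LILRA5 lie on the minus strand within chr19:54216278-54313139, and LILRA2, LILRA1, LILRB1 and LILRB4 lie on the plus strand within chr19:54572920-54670359. The genes are close in sequence, which bears on every count below, because reads that mapped to several places and reads over more than 1 gene had been left out of the deposited counts. The first 120 coding bases of 4 members are given to show this closeness, with LILRB3 as the base of comparison. Capitals mark each position that differs from LILRB3 (GENCODE 29 transcripts).
LILRB3: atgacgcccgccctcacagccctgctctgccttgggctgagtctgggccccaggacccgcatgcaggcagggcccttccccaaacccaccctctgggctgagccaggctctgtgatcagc
LILRA6: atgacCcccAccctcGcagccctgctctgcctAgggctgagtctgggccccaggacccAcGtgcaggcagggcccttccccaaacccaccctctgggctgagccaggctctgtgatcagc
LILRB4: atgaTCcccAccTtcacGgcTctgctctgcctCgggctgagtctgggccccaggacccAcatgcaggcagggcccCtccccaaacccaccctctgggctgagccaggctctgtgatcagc
LILRB1: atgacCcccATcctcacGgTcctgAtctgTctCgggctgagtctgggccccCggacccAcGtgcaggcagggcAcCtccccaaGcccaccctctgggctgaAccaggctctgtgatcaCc
Over this stretch LILRA6, an activating receptor, differed from the inhibitory LILRB3 at 6 positions. LILRB4, which had the most reads, differed from LILRB3 at 9 positions, and LILRB1 differed at 16. Over the aligned coding sequence LILRA6 and LILRB3 were 94.5% identical across 1431 bases, the closest of the 36 pairs. LILRA1 and LILRA2 were 90.9% identical and LILRB1 and LILRB2 90.6% identical. The pair furthest apart was LILRA2 and LILRB4, at 65.8%.

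The share of each gene's sequence that occurs in no other gene was counted in stretches as long as a read might be, at 50, 75, 100 and 150 bases, since the read length is not given in the sources used here. At 50 bases LILRB3 had the lowest unique share, 72.8%, followed by LILRA6 at 76.6% and LILRB1 at 78.4%. LILRA6 had 22.4% of its 50-base stretches in common with LILRB3. At 150 bases the unique shares were 94.1% for LILRB3 and 96.6% for LILRA6. LILRA1 and LILRA5 were the most distinct, with 94.7% and 96.5% of their 50-base stretches unique. LILRA2 and LILRB4 stayed at 88.0% and 90.2% at 150 bases, because annotated neighbours overlap their exons: AC245036.5 covers 15.8% of the exon length of LILRA2, and the pseudogene VN1R105P covers 13.0% of that of LILRB4. The levels of LILRA2, LILRB4 and of the pair LILRA6 and LILRB3 are therefore uncertain, and reads between LILRA6 and LILRB3 may have been split or lost.

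**Figure D1:**
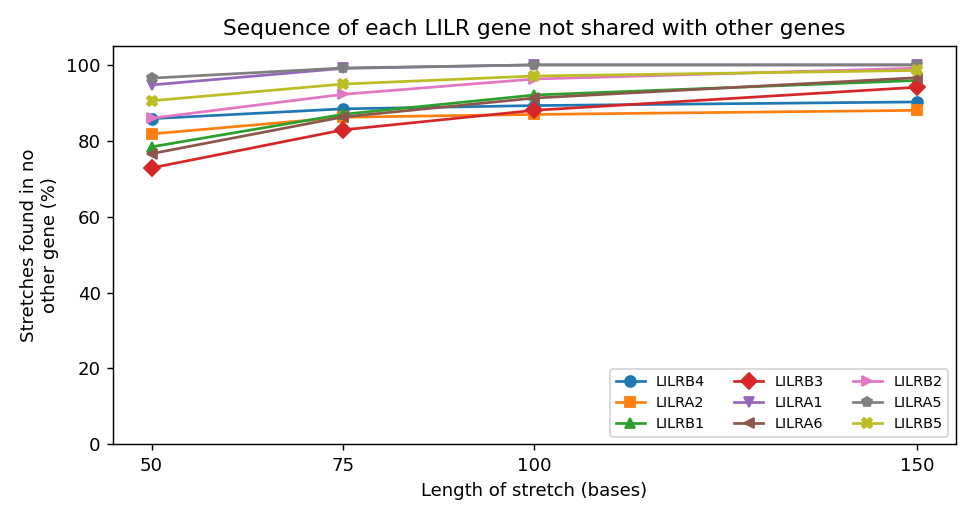
Percentage of the distinct stretches of each LILR gene (vertical axis) that occur in no other annotated gene, for stretches of 50, 75, 100 and 150 bases (horizontal axis), 1 line per gene. LILRB3 and LILRA6 are lowest at 50 bases, at 72.8% and 76.6%, and LILRA2 and LILRB4 are lowest at 150 bases, at 88.0% and 90.2%.

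Promoter windows (250 bases before to 50 after a start, RefSeq, GRCh38.p14) were found for 8 of the 9 genes, 14 windows in all; LILRA6 had none in the table used. The windows of LILRB4, the member with the most reads, and of LILRB5, which had almost none, are shown side by side. They lie at chr19:54662735-54663034 on the plus strand and at chr19:54257224-54257523 on the minus strand. Capitals mark the PU.1 core GAGGAA and the ETS core ACAGGAAG, searched on both strands, so that ACAGGAAG appears as CTTCCTGT where it lies on the other strand. Both cores hold the letters AGGAA, and the ETS core was added after the sequences had been seen.
LILRB4: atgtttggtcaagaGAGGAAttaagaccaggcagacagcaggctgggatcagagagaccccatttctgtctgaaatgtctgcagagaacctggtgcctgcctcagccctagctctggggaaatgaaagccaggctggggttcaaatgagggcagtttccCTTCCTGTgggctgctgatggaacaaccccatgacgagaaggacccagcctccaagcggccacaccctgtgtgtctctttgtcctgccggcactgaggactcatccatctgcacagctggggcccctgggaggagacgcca
LILRB5: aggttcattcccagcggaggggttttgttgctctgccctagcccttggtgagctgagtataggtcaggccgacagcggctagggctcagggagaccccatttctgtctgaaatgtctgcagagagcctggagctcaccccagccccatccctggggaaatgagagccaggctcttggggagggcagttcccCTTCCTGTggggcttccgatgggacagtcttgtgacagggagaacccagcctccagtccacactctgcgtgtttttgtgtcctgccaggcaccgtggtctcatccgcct
The core ACAGGAAG occurred in 6 of the 14 windows, from 5 of the 8 genes, and in 2.99% of 35116 promoter windows of all genes. Because it was chosen after these windows were seen, the shares do not test for an excess. The windows are also not independent, and those of LILRA2 overlap and hold the same site. The core was present in both windows shown. GAGGAA was present in that of LILRB4 and not in that of LILRB5, and occurred in 4 of the 14 windows and in 27.9% of all windows. The 4 windows were of LILRB4, LILRB3, LILRB1 and LILRA5. LILRA5 had 2 reads over all libraries, and the windows of LILRA2, with 1024 reads, did not hold GAGGAA. The AP-1 motif TGANTCA occurred in 1 window, of LILRB1, against 7.71% of all windows. A spaced interferon-response motif occurred in 0 windows, against 3.57% of all windows. These are matches of letters, and no binding was measured.

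Library totals were 36.9, 41.0 and 34.8 M reads in the CXCL10 group and 38.9, 38.0 and 36.0 M reads in the control group. Both mates of a fragment had been counted, so a gene without reads allows up to 3 fragments, or 6 reads, which is 0.146 to 0.173 CPM (counts per M reads) per library; this limit covers counting error only. Control replicate 4 had the fewest genes with reads, 21546 against 23631 to 24807 in the other 5 libraries. It was the lowest library for 29.3% and the highest for 25.8% of the tested genes. A CXCL10 library was nearly as often extreme: CXCL10 replicate 3 was the highest for 25.5% and the lowest for 19.5%. CXCL10 replicate 1 was the lowest for 21%. Fold changes with each library left out in turn are given at the end. The macrophage markers fixed for this cell type summed to 3001 to 3400 CPM in the CXCL10 libraries and 3147 to 3603 CPM in the control libraries. CSF1R was the largest part, with means of 1543 CPM with CXCL10 and 1496 CPM in control, and MRC1 was at 1.6 and 1.4 CPM. In the test described below 0 of the 9 tested markers passed. At an unadjusted p under 0.05 ITGAM was higher and TYROBP lower with CXCL10 (edgeR unadjusted p = 0.0244 and 0.0149), against 2.5% higher and 4.65% lower of all genes tested. CD68 had 0 to 5 reads per library, and 85.6% of its exon length overlaps other annotated genes. Of other cell types, LILRA4 and CLEC4C of plasmacytoid dendritic cells, MS4A1 of B cells and CD2 of T cells had 0 reads in all 6 libraries. The lymphocyte markers TRAC and GNLY had reads, at 258 ± 24.5 CPM (TRAC) and 142 ± 14.9 CPM (GNLY) in the CXCL10 group and 247 ± 27.0 and 182 ± 24.6 CPM in the control group (SD, n = 3 each). Other members of the same lists were low: CD3D, CD3E and CD3G of T cells had at most 8, 4 and 10 reads in a library. KLRD1 and NCR1 of NK cells had at most 2 and 6 reads, while NKG7 and NCAM1 had 147 to 192 and 65 to 145. The part of these genes in the LILR values was not tested.

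LILRB4 was the main LILR transcript of these cells. It is an inhibitory receptor found mostly on monocytes, macrophages and dendritic cells. It had 913, 908 and 779 reads in CXCL10 replicates 1, 3 and 4 and 872, 841 and 659 reads in control replicates 1, 3 and 4. Scaled to library size it stood at 24.6, 21.1 and 21.8 CPM in the CXCL10 libraries and 22.6, 22.2 and 19.7 CPM in the control libraries. The groups overlap, with CXCL10 replicate 1 the highest library and control replicate 4 the lowest. LILRB4 took 67.0% ± 2.44 of all LILR reads in the CXCL10 group and 68.2% ± 3.88 in the control group (SD, n = 3 each).

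LILRA2 was second among the members. It is an activating receptor that recognises immunoglobulins cut by microbial proteases. Its reads were 152, 182 and 220 in CXCL10 replicates 1, 3 and 4 and 178, 152 and 140 in control replicates 1, 3 and 4. That gave 4.10, 4.22 and 6.17 CPM in the CXCL10 libraries and 4.61, 4.02 and 4.19 CPM in the control libraries. CXCL10 replicate 4 alone was above the rest, and the other 5 libraries lay close together.

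LILRB1, an inhibitory receptor for HLA class I molecules, had 143, 199 and 116 reads in the CXCL10 libraries and 152, 208 and 71 reads in the control libraries. On the CPM scale this was 3.86, 4.62 and 3.25 with CXCL10 and 3.93, 5.50 and 2.12 in control. The highest and the lowest of the 6 libraries were both controls, replicates 3 and 4, so the control values enclosed those with CXCL10. LILRB3, an inhibitory receptor whose outer part is nearly the same as that of LILRA6, had 52, 62 and 43 reads with CXCL10 and 44, 56 and 40 in control, or 1.40, 1.44 and 1.21 CPM against 1.14, 1.48 and 1.20 CPM. Its 6 values were among the closest of all members, and the groups overlap.

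The other members were near the limit of what these libraries can show. LILRA1, an activating receptor, had 18, 16 and 10 reads in the CXCL10 libraries and 18, 27 and 2 in the control libraries. LILRA6, the activating partner of LILRB3, had 16, 12 and 8 reads in the CXCL10 libraries and 3, 11 and 0 in the control libraries. LILRB2, an inhibitory receptor that binds HLA-G and angiopoietin-like proteins, had 14, 8 and 10 reads with CXCL10 and 8, 10 and 2 in control. Control replicate 4 was lowest for all 3 of these genes. LILRA5, an activating receptor of monocytes and neutrophils, had 0 reads in each CXCL10 library and 2, 0 and 0 reads in the control libraries. LILRB5, an inhibitory receptor, had 0 reads in each CXCL10 library and 0, 2 and 0 reads in the control libraries. For LILRA5 and LILRB5 both groups lie under the limit of 6 reads per library, so no fold change is given; they were not detectable at this depth. Among the other LILR names, LILRA4 and the pseudogene LILRP1 had 0 reads in all libraries, and LILRP2 had 2 reads in control replicate 3. LILRA3 was not among the gene names counted, so it has no value. The antisense gene LILRB1-AS1 overlaps 7.09% of the exon length of LILRB1 and had 0 reads; no strand was set in the counting.

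Levels of different genes were compared as reads per kilobase of exon and per M reads (RPKM). LILRB4 was at 3.56 ± 0.296 in the CXCL10 group and 3.40 ± 0.248 in the control group, and over all 6 libraries its mean was 4.09 times that of LILRA2. This put LILRB4 at the 76.7th percentile of genes with reads. LILRA2 was at 0.903 ± 0.217 with CXCL10 and 0.799 ± 0.0563 in control. LILRB1 was at 0.780 ± 0.136 with CXCL10 and 0.769 ± 0.338 in control, and its range over the libraries overlapped that of LILRA2. LILRB3 followed at 0.361 ± 0.0335 with CXCL10 and 0.341 ± 0.0492 in control, below LILRB1 in all 6 libraries with no overlap of ranges. LILRA1 was at 0.106 ± 0.0286 with CXCL10 and 0.115 ± 0.0921 in control, and its highest library was below the lowest of LILRB3. LILRA6 was at 0.115 ± 0.0395 with CXCL10 and 0.0452 ± 0.0555 in control, and LILRB2 at 0.0738 ± 0.0252 with CXCL10 and 0.0465 ± 0.0277 in control (SD, n = 3 each throughout). The ranges of LILRA1 and LILRA6, and those of LILRA6 and LILRB2, overlap, so their order does not hold beyond their spread. Using only the unique part of each gene's exons as its length, an alternative chosen after seeing the data, moved 0 of the 9 ranks at any of the 4 stretch lengths. In RNA from bulk cells, fewer cells with a transcript and less of it per cell cannot be told apart.

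**Figure D2:**
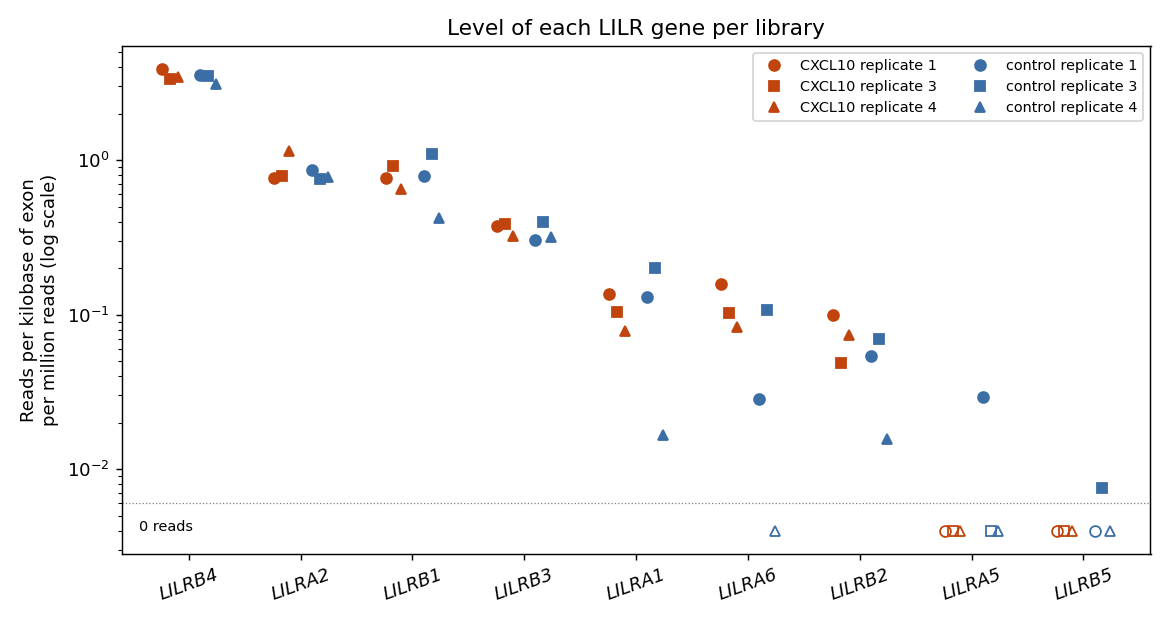
Reads per kilobase of exon and per M reads (vertical axis, log scale) of each LILR gene (horizontal axis, ordered by mean level) in the CXCL10 libraries (red, left) and the control libraries (blue, right), 1 point per library; open points under the dotted line had 0 reads. LILRB4 lies above all others in every library, and the control replicate 4 point (blue triangle) is the lowest of the 6 for LILRB4, LILRB1, LILRA1, LILRA6 and LILRB2.

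The comparison asks whether CXCL10 changed LILR transcripts in these cells. No LILR gene passed the test. Of the 9 genes, 6 had enough reads to be tested with edgeR's quasi-likelihood test (LILRA1, LILRA2, LILRA6, LILRB1, LILRB3 and LILRB4), and 0 of the 6 had an adjusted p under 0.05. The background was also 0%: 0 of 16531 genes tested were called, and the lowest adjusted p of any gene was 0.683. At an unadjusted p under 0.05, 0 of the 6 passed in either direction, against 7.14% of all genes tested (1181), made up of 2.5% higher and 4.65% lower. In 0 of the 6 did the libraries of the groups separate in CPM, against 12.2% of all genes tested, made up of 5.76% with CXCL10 higher and 6.48% with CXCL10 lower. The fitted log2 fold change was above 0 for 5 and below 0 for 1, with a median of 0.08, and over all genes tested the median was 0.02 with 54.0% above 0. Without control replicate 4 it was above 0 for 4 and below 0 for 2.

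The intervals show what size of difference the data leave possible. LILRB4 averaged 22.5 ± 1.87 CPM in CXCL10 libraries and 21.5 ± 1.57 CPM in control libraries (SD, n = 3 each), a log2 fold change of 0.07 (SE 0.15, 95% interval -0.25 to 0.38, edgeR adjusted p = 0.940). LILRA2 averaged 4.83 ± 1.16 CPM with CXCL10 and 4.27 ± 0.301 CPM in control, a log2 fold change of 0.18 with an interval of -0.29 to 0.64 (edgeR adjusted p = 0.874).

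LILRB1 averaged 3.91 ± 0.683 CPM with CXCL10 and 3.85 ± 1.69 CPM in control. Its log2 fold change was 0.02 with an interval of -0.61 to 0.65 (edgeR adjusted p = 0.994), and -0.26 without control replicate 4. LILRB3 averaged 1.35 ± 0.125 CPM with CXCL10 and 1.27 ± 0.184 CPM in control, a log2 fold change of 0.09 with an interval of -0.56 to 0.73 (edgeR adjusted p = 0.964). The intervals of these 4 genes leave out a 2-fold change in either direction. They are approximate and rest on the spread between these libraries, which may be technical.

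The intervals of the low members were wide. LILRA6 had the fold change furthest from 0 of the 6: 0.311 ± 0.108 CPM with CXCL10 and 0.123 ± 0.151 CPM in control gave a log2 fold change of 1.29 (SE 0.81, interval -0.45 to 3.02, edgeR unadjusted p = 0.134, adjusted p = 0.754). It rests on few reads. The 11 reads of control replicate 3 lie within the CXCL10 range, and the 3 and 0 reads of control replicates 1 and 4 lie below it. Without control replicate 4 the value was 0.75, and without control replicate 3 it was 2.84 (edgeR adjusted p = 0.393). With the reads of LILRA6 and its near copy LILRB3 summed, it was 0.25. LILRA1 averaged 0.379 ± 0.103 CPM with CXCL10 and 0.413 ± 0.330 CPM in control, a log2 fold change of -0.14 with an interval of -1.54 to 1.26 (edgeR adjusted p = 0.975), and -0.63 without control replicate 4. LILRB2 did not pass the filter on low counts; fitted without that filter its log2 fold change was 0.64 with an SE of 0.80 (edgeR adjusted p = 0.836). In the fit without control replicate 4, where it passed the filter, the value was 0.25 (edgeR adjusted p = 0.997).

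**Figure D3:**
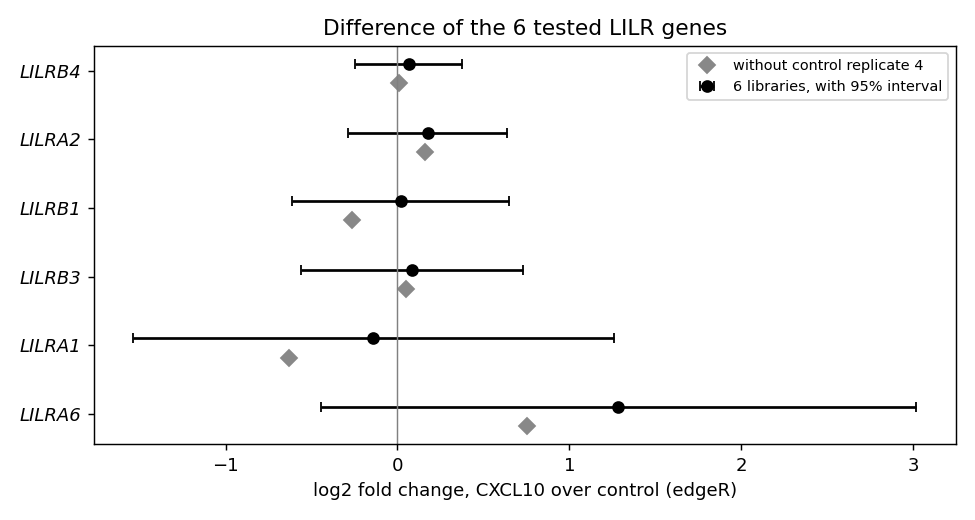
Fitted log2 fold change of CXCL10 over control (horizontal axis, edgeR) for the 6 tested LILR genes, in order of level from top to bottom; black points with bars are the 6 libraries with 95% intervals, grey diamonds the fit without control replicate 4. All 6 intervals include 0, and they widen from LILRB4 (-0.25 to 0.38) to LILRA6 (-0.45 to 3.02).

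Activating and inhibitory members were also summed. The family as a whole took 35.5, 33.8 and 34.1 reads per M reads of the library in CXCL10 replicates 1, 3 and 4, and 32.9, 34.4 and 25.4 in control replicates 1, 3 and 4. Control replicate 4 was lowest and the other 5 libraries lay within a narrow range: the mean was 34.5 ± 0.880 with CXCL10 and 30.9 ± 4.83 in control (SD, n = 3 each), and 33.6 in control without replicate 4. The 4 activating members together took 5.67 ± 1.02 reads per M with CXCL10 and 4.71 ± 0.666 in control. The 5 inhibitory members took 28.8 ± 1.58 with CXCL10 and 26.2 ± 4.20 in control. Inhibitory reads outnumbered activating reads in every library, by 6.03, 5.61 and 3.98 times in the CXCL10 libraries and 5.35, 5.88 and 5.44 times in the control libraries. The ratio of 3.98 belongs to CXCL10 replicate 4, where LILRA2 made up 18.6% of LILR reads, against 11.6% to 15.3% in the other libraries. No test was made of these sums. They use unscaled library totals. With such totals the median log2 fold change of all genes tested was 0.102, with 66.2% above 0. With scaled totals the family summed to 33.57 ± 1.575 CPM with CXCL10 and 31.65 ± 3.823 CPM in control (SD, n = 3 each).

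**Figure D4:**
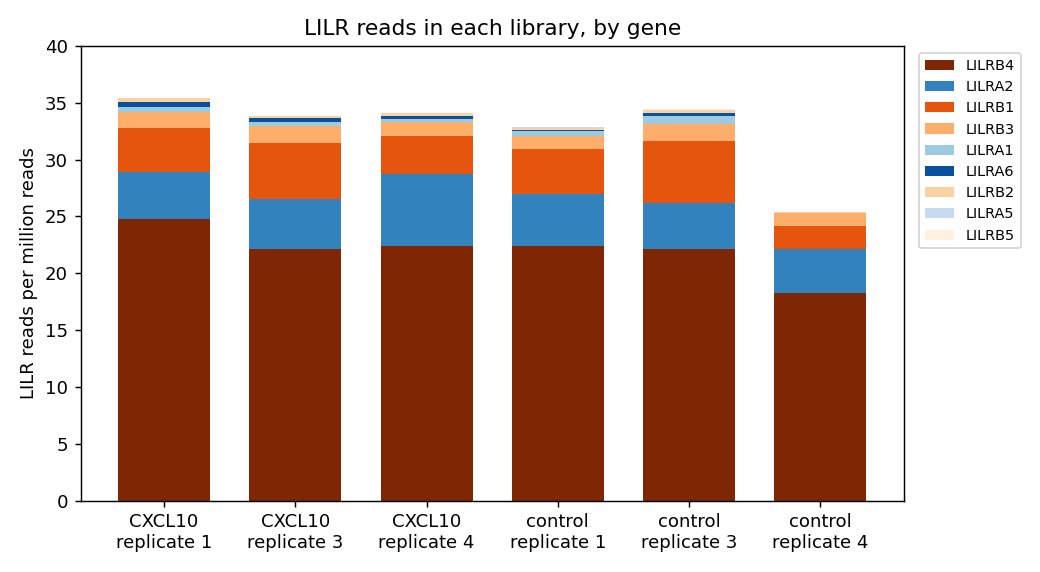
LILR reads per M reads of the library (vertical axis) in each of the 6 libraries (horizontal axis, CXCL10 at left), stacked by gene with inhibitory members in orange to brown and activating members in blue. LILRB4 fills most of every bar, and the bar of control replicate 4 reaches 25.4, against 32.9 to 35.5 for the other 5 libraries.

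Genes that work with these or other activating and inhibitory receptors were described by lists. All 12 adaptors and kinases listed for activating receptors were tested, and 0 passed at an adjusted p under 0.05. Of the fitted values 6 were above 0 and 6 below, with a median of -0.00. At an unadjusted p under 0.05, 2 of the 12 were lower and 0 higher, against 4.65% lower and 2.5% higher of all genes tested. These 2, HCST and TYROBP, are adaptors other than FCER1G, the one given above for the LILRA receptors. The libraries of the groups did not overlap in 5 of the 12, against 12.2% of all genes tested. Of these, HCST was lower with CXCL10 in all its libraries, while the kinases SYK, LYN and BTK and the phospholipase PLCG2 had every CXCL10 library above every control library, with log2 fold changes of 0.16, 0.12, 0.14 and 0.21 and no unadjusted p under 0.05; these 4 were chosen after their values were seen. HCST, an adaptor that couples receptors to phosphoinositide signalling, had the lowest p: 5.02, 3.46 and 3.84 CPM in CXCL10 libraries and 5.95, 5.21 and 11.7 CPM in control libraries, a log2 fold change of -0.89 (SE 0.28, edgeR unadjusted p = 0.00713, adjusted p = 0.683). All CXCL10 libraries were below all controls, control replicate 4 was far the highest, and the value without it was -0.44. Another annotated gene overlaps 50.1% of the exon length of HCST. TYROBP, an adaptor of activating myeloid receptors, stood at 418 ± 76.4 CPM with CXCL10 and 618 ± 209 CPM in control (log2 fold change -0.56, edgeR adjusted p = 0.683; -0.25 without control replicate 4). FCER1G, the adaptor of the LILRA receptors, is outside the rule for named genes and is given for its role: it averaged 966 ± 74.4 CPM with CXCL10 and 1183 ± 202 CPM in control (log2 fold change -0.29, edgeR adjusted p = 0.702; -0.15 without control replicate 4, its highest library).

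Of the 8 phosphatases and other mediators of the inhibitory arm, 0 passed the adjusted test and 0 the unadjusted one, with 4 fitted values above 0, 4 below and a median of 0.02. The inositol phosphatase INPP5D was at 207, 184 and 198 CPM in CXCL10 libraries and 174, 166 and 158 CPM in control libraries. It was the 1 of the 8 whose groups did not overlap, against 12.2% of all genes tested, and it did not pass (log2 fold change 0.25, SE 0.12, edgeR adjusted p = 0.702). Its relative INPPL1 averaged 134 ± 14.8 CPM with CXCL10 and 107 ± 24.2 CPM in control (log2 fold change 0.33, edgeR adjusted p = 0.702; 0.16 without control replicate 4).

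Ligands were tested in 2 lists. Of 9 HLA class I and related genes 8 were tested, and 0 passed the adjusted or the unadjusted test; 1 fitted value was above 0 and 7 below, with a median of -0.11. HLA-B was at 121 ± 19.4 CPM with CXCL10 and 137 ± 11.9 CPM in control (log2 fold change -0.17, edgeR adjusted p = 0.803). Levels of HLA genes are uncertain because near-identical and overlapping genes can lose reads in this counting. Of 8 other ligands 6 were tested, 0 passed either test, and 1 fitted value was above 0 and 5 below, with a median of -0.07. BST2, the ligand of LILRA4, averaged 308 ± 75.7 CPM with CXCL10 and 374 ± 41.1 CPM in control (log2 fold change -0.28, edgeR adjusted p = 0.733). SEMA4A, a semaphorin on antigen-presenting cells, was at 26.9 ± 2.76 CPM with CXCL10 and 29.6 ± 0.950 CPM in control (log2 fold change -0.14, edgeR adjusted p = 0.844).

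The neighbours of the LILR genes on chromosome 19 gave the same count of calls. Of 22 listed, 11 were tested and 0 passed; 8 fitted values were above 0 and 3 below, with a median of 0.22, which was 0.08 without control replicate 4. Control replicate 4 was the lowest library for 8 of these 11 genes, and for 4 of the 6 tested LILR genes, against 29.3% of all genes tested. RPS9, a ribosomal protein gene, was the only one of the 11 at an unadjusted p under 0.05, against 7.14% of all genes tested: it averaged 807 ± 161 CPM with CXCL10 and 1040.0 ± 145 CPM in control (log2 fold change -0.37, edgeR unadjusted p = 0.0360, adjusted p = 0.683; -0.24 without control replicate 4, its highest library). LENG1 averaged 7.54 ± 1.64 CPM with CXCL10 and 9.79 ± 0.437 CPM in control (log2 fold change -0.38, edgeR adjusted p = 0.702), and was the 1 of the 11 whose groups did not overlap, against 12.2% of all genes tested.

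The summed LILR counts, scaled like the CPM of single genes, were 35.3, 32.2 and 33.3 CPM in CXCL10 replicates 1, 3 and 4 and 33.0, 34.6 and 27.3 CPM in control replicates 1, 3 and 4. Among the 5 genes outside the family whose pattern over the 6 libraries lay nearest were PLEK, EWSR1 and DELE1, by the root-mean-square distance of log2(CPM + 0.5) centred on each gene's mean. PLEK, which encodes pleckstrin, a substrate of protein kinase C in blood cells, was nearest with a distance of 0.00917, EWSR1 had a distance of 0.0205 and DELE1 one of 0.0238, against a median of 0.221 over 13275 genes with a mean of at least 1 CPM. PLEK was at 374, 342 and 348 CPM in CXCL10 libraries and 351, 363 and 292 CPM in control libraries. Like the LILR sum it was highest in CXCL10 replicate 1 and lowest in control replicate 4. The family's own values vary little, with a root-mean-square of 0.118 around their mean, and the likeness describes these 6 libraries only.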

How the data were processed

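Polyadenylated RNA of 6 THP-1 libraries was sequenced on an Illumina NovaSeq X Plus after a strand-marking Illumina mRNA kit, per the labels. The deposited files hold raw counts of reads per gene name, which the authors made with featureCounts 2.0.6 on GENCODE 30 exons, per the file headers; the other tools were Trim Galore, STAR and Subread on hg38, per the submitters' processing notes. Per the file headers, both mates were counted, no strand was set, and reads over several genes or places were left out.

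Groups came from the labels. Counts of the genes that passed filterByExpr entered edgeR 4.0.16 under R 4.3.3 (TMM factors, quasi-likelihood fit on group over 6 libraries, Benjamini-Hochberg adjustment over 16531 genes, threshold 0.05). The test was checked on simulated counts. CPM and values per kilobase were computed here with TMM-scaled totals, and shares of reads with unscaled totals. Settings tried were other scaling factors, filters, thresholds, DESeq2 1.42.0, limma 3.58.1 (voom), halved counts, removal of the length trend, a replicate block and leaving out each library. Coding sequences and shared stretches came from GENCODE 29, promoters from RefSeq. The members, lists and rule for named genes were chosen with earlier results of these data known. The rule takes all members and the other LILR names. From each other list (markers excepted) it takes the members past the threshold or, with none, the 2 with the lowest p and a mean of at least 1 CPM. It also takes the 5 genes with the pattern nearest to the summed family. Some genes that the rule names are not reported here.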

Additional observations from a re-analysis of the deposited data

How the results depend on the processing

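The direction of the 6 tested LILR genes held in 85 of 94 alternatives. At an adjusted p under 0.05 none of these alternatives called any of the 6 (lowest adjusted p 0.393). All 94 reuse the same libraries, so they are not independent. The fit with LILRA6 and LILRB3 summed counts once for each gene. The 9 turns in direction fell on LILRA1, LILRA2, LILRB1 and LILRB4. LILRA6 reached an unadjusted p under 0.05 in 2 of the 94, limma-voom and the fit without control replicate 3. The LILRA1 log2 fold change turned from -0.14 to 0.32 with limma-voom, and that of LILRB1 turned from 0.02 to -0.014 with the length trend removed; the cause was not tested. With each library left out in turn the log2 fold changes ranged from -0.63 to 0.51 for LILRA1, -0.038 to 0.28 for LILRA2, 0.75 to 2.84 for LILRA6, -0.26 to 0.38 for LILRB1, 0.01 to 0.23 for LILRB3 and -0.0044 to 0.12 for LILRB4. The log2 ratio of CXCL10 over control ranged for the activating share from 0.11 to 0.35 (0.27 with all libraries), the inhibitory share from 0.01 to 0.23 (0.14) and the inhibitory to activating ratio from -0.21 to 0.07 (-0.09). The share ratios used unscaled totals, with which the median log2 fold change of all genes tested was 0.102. The number of genes called stayed at 0 in each fit with a library left out. Without a filter on low counts 137 of 30869 genes were called, 45 higher and 92 lower, and 0 of them were LILR genes. DESeq2 and limma-voom called 0, with 1211 and 1182 genes at an unadjusted p under 0.05. Same-numbered libraries did not deviate together (correlations 0.0261, 0.0185 and -0.0507), so the numbers were not taken as pairs; with the replicate block 0 genes were called, 1323 were at an unadjusted p under 0.05, and LILRA1 turned to 0.11. LILRA1 and LILRA6 gave no value at a minimum of 1 CPM or with halved counts, and LILRA5, LILRB2 and LILRB5 were not tested with all 6 libraries, so their alternatives are not counted among the 94. Depth limits LILRA1, LILRA6 and LILRB2, with at most 27 reads in a library.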
